A study of Homo sapiens with 8 samples.

Results

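Complement and coagulation genes encode mostly plasma proteins made by hepatocytes, with exceptions such as F3, tissue factor, a membrane protein of other cells. From a list of them, 43 were examined among the 20033 protein-coding genes of chromosomes 1-22, X and Y. A peak was assigned to a gene of GENCODE 44 when its summit fell inside the gene or within 20 kb of either end. It was called a TSS peak when the summit lay within 1000 bp of the transcription start site (TSS) of the canonical transcript, a gene body peak elsewhere in the gene, and a flank peak outside it. By this rule 166 of the 60628 peaks belonged to the 43 genes.

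The bulk ATAC-seq experiment used wild-type HepG2, an established human liver cancer line of hepatocyte character (hepatocellular carcinoma in the sample labels, hepatoblastoma in the study's list of abbreviations), fixed with 0.1, 0.5, 1 or 5% formaldehyde (FA) and then either cryopreserved or flash-frozen, which gave 8 libraries. In ATAC-seq the Tn5 transposase cuts and tags open chromatin, so a peak marks accessible DNA and not RNA or protein. The peak list of 1 library, fixed with 0.1% FA and cryopreserved, was analysed here, without a replicate. There was therefore no test between conditions, and intervals cover counting error only. The authors called peaks on this library alone against GRCh38, and each peak carries its fold enrichment over the local background at the summit.

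The liver identity of the sample was checked first. Of 10 hepatocyte markers, 9 had a TSS peak, including APOA1, TTR and HNF4A, and ALB, which encodes albumin, did not. Of 13 markers of other liver and blood cells, the macrophage gene CD68 had a TSS peak and the other 12 did not. Among all protein-coding genes 61.0% had one, and 69.9% of those with a GC content of 50% or more within 500 bp of the TSS. The median GC content there was 60.0% for the hepatocyte markers and 46.85% for the other markers. The 10 hepatocyte markers are too few for a firm share. Sequencing depth was not taken from reads here. Fragments at each summit were solved from the fold and the -log10 p, and their median was 21 at the peaks of the 43 genes, with a range of 5 to 137, against 17 over all 60474 peaks of chromosomes 1-22, X and Y.

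Complement is a cascade of plasma proteases that tags microbes for uptake and ends in a pore in their membranes. Coagulation is a second protease cascade, which ends in thrombin and a fibrin clot and is held back by anticoagulant and fibrinolytic proteins. Liver promoters of both are known to be bound by hepatocyte factors such as HNF1, HNF4, FOXA and C/EBP, and several complement genes are induced by interferons and interleukins through IRF, STAT and NF-kB factors.

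As examples, the 150 bases before the RefSeq start of 8 genes are given in GRCh38.p14, 5′ to 3′ on the strand of the gene. Capitals mark matches to HNF1 (GTTAATNAT), HNF4 (CAAAGTCCA), C/EBP (TTGCNNAA), FOXA (TGTTTAC), STAT (TTCCNGGAA), IRF (GAAANNGAA) or NF-Y (CCAATCA), read on either strand. CFB and F10 had the TSS peaks of the highest fold. C4BPA, C8B, PROS1, PROZ and VTN had a TSS peak and a match to a liver or cytokine motif. F13B had a match but no peak. Apart from CFB and F10, these genes were chosen for a match. Other genes with a TSS peak, such as F2, F7, F12 and PROC, had no match in these 150 bases. The 8 therefore do not stand for the rest.
CFB, chr6:31945945-31946094, plus strand, with an IRF and a STAT match: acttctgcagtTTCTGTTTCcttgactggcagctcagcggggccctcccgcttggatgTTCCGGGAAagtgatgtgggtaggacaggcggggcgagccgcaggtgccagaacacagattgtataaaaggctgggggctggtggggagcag
F10, chr13:113122649-113122798, plus strand, with an NF-Y match: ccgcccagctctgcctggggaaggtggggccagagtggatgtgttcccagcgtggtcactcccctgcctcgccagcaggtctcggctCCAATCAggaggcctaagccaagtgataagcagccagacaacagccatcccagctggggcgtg
C4BPA, chr1:207104083-207104232, plus strand, with a FOXA and an HNF1 match: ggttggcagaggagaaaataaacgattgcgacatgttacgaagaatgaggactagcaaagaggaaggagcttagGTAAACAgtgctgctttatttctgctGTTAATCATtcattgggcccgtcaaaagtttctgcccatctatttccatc
C8B, chr1:56966016-56966165, minus strand, with a FOXA match: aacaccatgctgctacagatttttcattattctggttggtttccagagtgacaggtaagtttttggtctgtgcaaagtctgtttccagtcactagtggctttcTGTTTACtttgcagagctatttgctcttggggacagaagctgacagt
PROS1, chr3:93973897-93974046, minus strand, with a FOXA and a STAT match: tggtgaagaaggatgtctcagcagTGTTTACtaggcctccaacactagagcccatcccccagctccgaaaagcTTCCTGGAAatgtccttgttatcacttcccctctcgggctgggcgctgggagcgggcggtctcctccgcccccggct
PROZ, chr13:113158498-113158647, plus strand, with an HNF4 match: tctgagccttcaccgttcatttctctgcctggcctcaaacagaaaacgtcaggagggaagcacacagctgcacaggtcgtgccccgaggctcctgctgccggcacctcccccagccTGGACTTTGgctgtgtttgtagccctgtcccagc
VTN, chr17:28370308-28370457, minus strand, with a STAT and a C/EBP match: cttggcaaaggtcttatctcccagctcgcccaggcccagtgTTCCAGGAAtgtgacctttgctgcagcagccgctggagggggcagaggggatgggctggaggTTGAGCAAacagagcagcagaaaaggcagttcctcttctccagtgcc
F13B, chr1:197067261-197067410, minus strand, with an HNF1 match: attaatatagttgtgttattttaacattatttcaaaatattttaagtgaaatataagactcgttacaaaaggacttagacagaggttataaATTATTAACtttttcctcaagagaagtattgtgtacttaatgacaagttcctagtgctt

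Of the 43 complement and coagulation genes, 31 (72.1%, exact binomial 95% interval 56.3 to 84.7%) had a TSS peak, against 61.0% of all protein-coding genes, which lies within that interval. The interval takes the genes as independent draws, whereas they are a fixed list and 16 of them lie in 7 clusters. It is therefore no test of the difference. Complement genes had one in 15 of 22 cases and coagulation genes in 16 of 21. At least 1 peak in the gene or within 20 kb was present at 41 of the 43 genes (95.3%), against 88.3% of protein-coding genes. The exceptions were F9, which encodes coagulation factor IX, and F13B, which encodes the carrier subunit of factor XIII. The median number of peaks per gene was 5, against 4 over protein-coding genes, at median gene lengths of 25230 and 27470 bp.

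**Figure D1:**
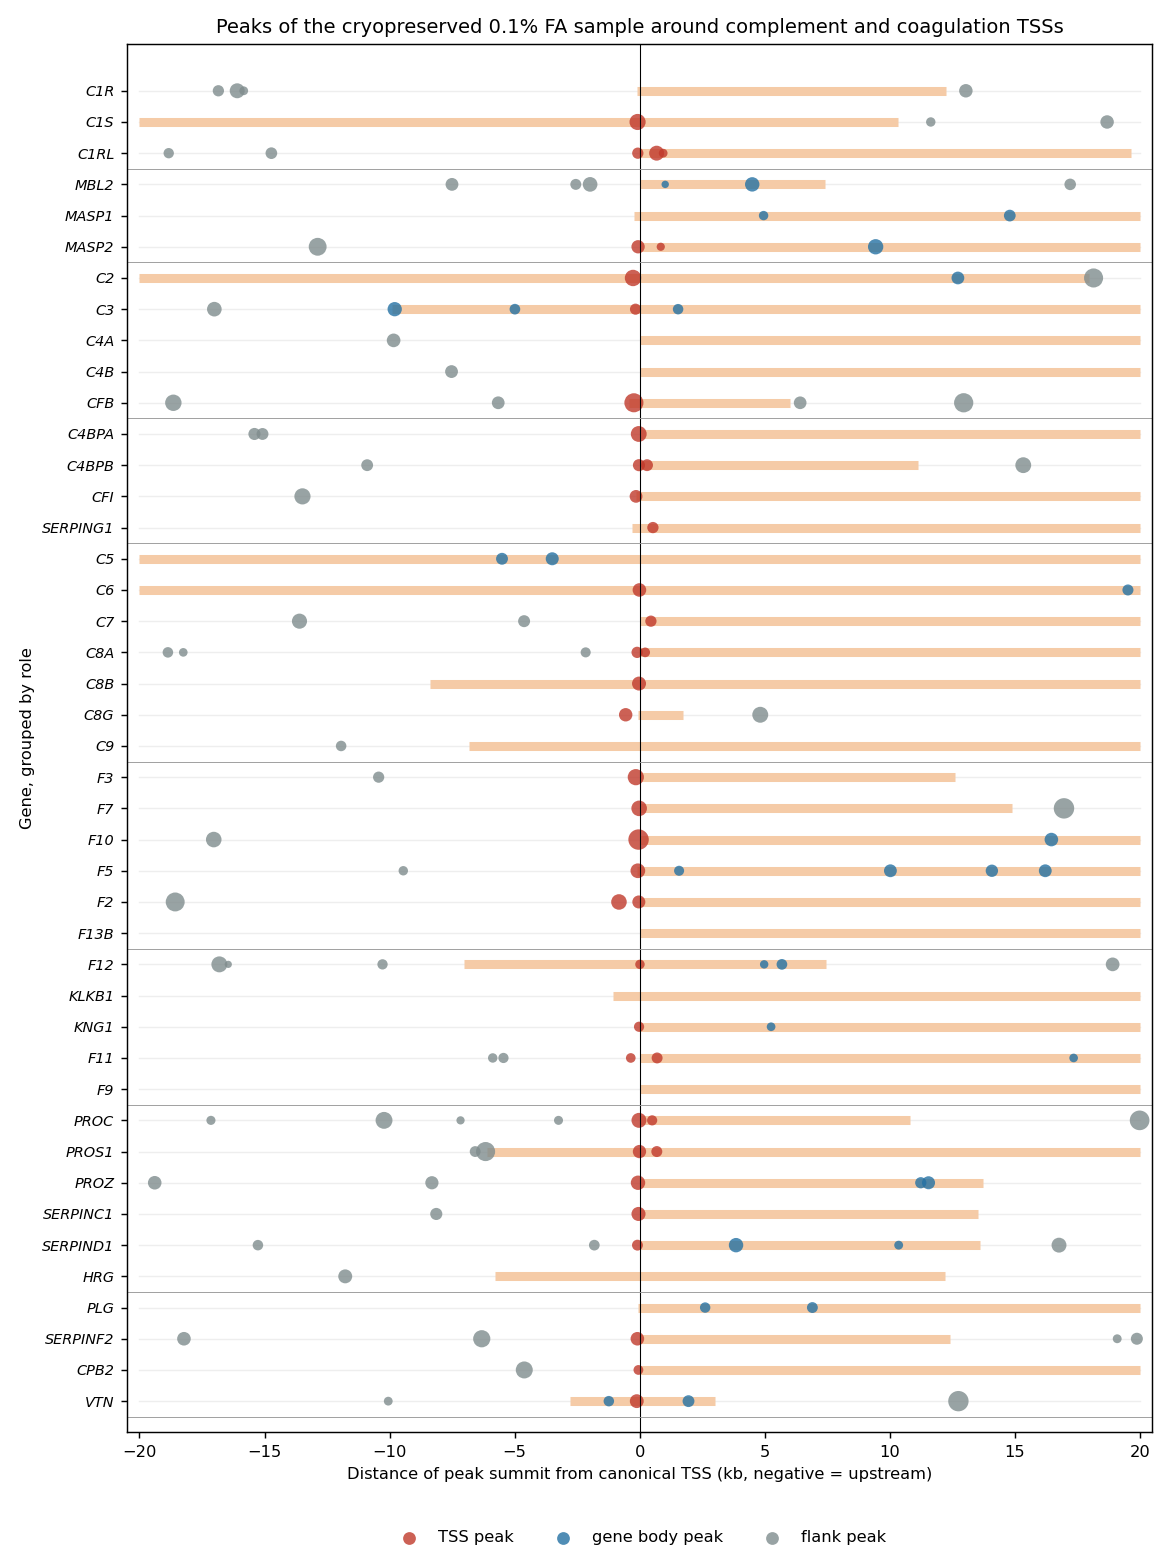
Peaks within 20 kb of the TSS of each of the 43 genes, grouped by role, with the distance of the summit from the canonical TSS in kb on the x axis and the annotated gene as an orange bar. Point area is proportional to fold enrichment and colour gives the place of the peak. Of the 195 gene-peak pairs, 134 fall in this range. F9, F13B and KLKB1 have no point.

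The TSS peaks of these genes had a lower median fold than those of protein-coding genes as a whole. The highest TSS peak of each of the 31 genes had a median fold of 14.2 (quartiles 9.79 and 17.9), against 17.9 (quartiles 12.9 and 22.8) for all protein-coding genes that had a TSS peak. Only CFB and F10, 2 of the 31, exceeded the upper quartile of protein-coding genes, and 23 lay below their median. The summits held a median of 29 fragments in the 31 genes, against 44 in protein-coding genes. The position was much like that elsewhere: the summit lay 1 to 200 bp upstream of the TSS in 22 of the 31 genes (71.0%), against 69.0% of protein-coding genes.

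The base composition of the start sites differed from that of most genes. GC content within 500 bp of the TSS had a median of 51.0% in the 43 genes, against 61.3% in protein-coding genes. Below 50% GC, 12 of 20 complement and coagulation genes (60.0%) had a TSS peak, against 16.6% of the 3341 protein-coding genes of that class. At 50% GC or above it was 19 of 23 (82.6%), against 69.9%. In the GC-poor class the highest TSS peak had a median fold of 10.5 in the 12 genes, against 13.8 in protein-coding genes. In the GC-rich class it was 15.9, against 18.1. The gap in share was thus seen mainly among GC-poor genes, and the lower fold in both classes. The GC-poor class of all protein-coding genes also holds genes of other tissues, whose part in its low share was not tested.

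**Figure D2:**
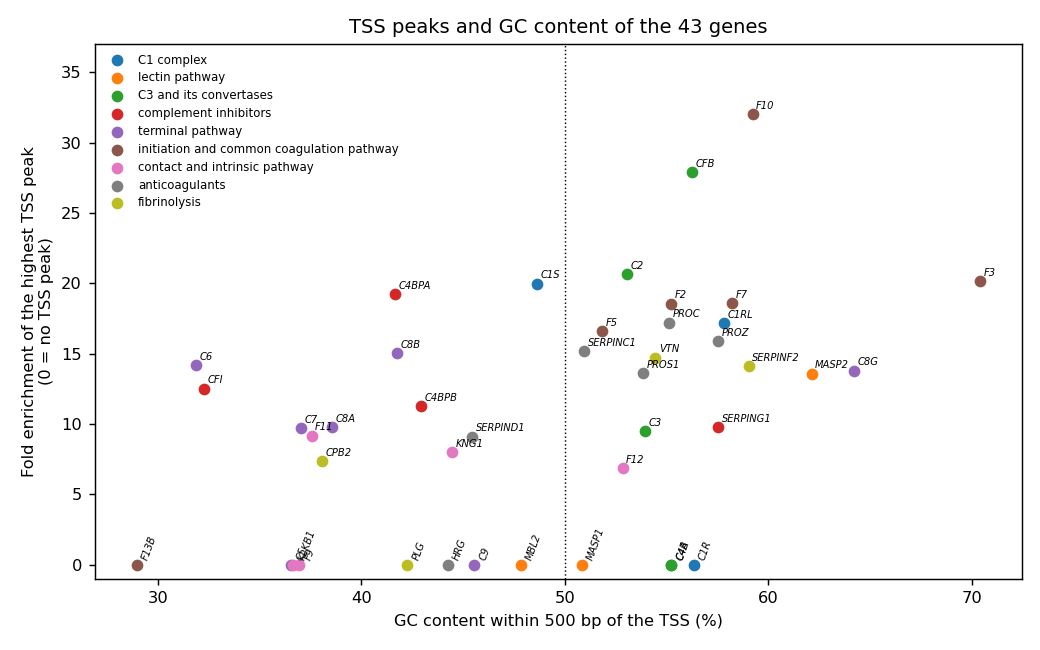
Fold enrichment of the highest TSS peak (y axis, 0 where there was no TSS peak) against the GC content within 500 bp of the TSS (x axis, %), 1 point per gene, coloured by role. Points left of the dotted line at 50% are the 20 GC-poor genes, 12 of them above 0. F10 and CFB are the highest points, both on the GC-rich side.

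The C1 complex starts the classical complement pathway. C1S, its effector protease, had a TSS peak of 19.98-fold with 34 fragments at -85 bp (distances are from the TSS, negative upstream). C1RL, a C1r-like protease, had 3 TSS peaks, of 17.2-fold at 677 bp, 9.75-fold at -76 bp and 5.91-fold at 938 bp, so its highest one lay in an intron. C1R, the protease that activates C1s, had no TSS peak, and its nearest summit lay 13040 bp downstream of the TSS with a fold of 13.9. These 3 genes lie side by side on chromosome 12 between 6988259 and 7109238, with 13 distinct peaks in them or their flanks. The 13 include peaks at the TSS of other genes, namely PHB2, EMG1, LPCAT3 and RBP5.

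In the lectin pathway, which recognises microbial sugars, MASP2, the protease that cleaves C4 and C2, had TSS peaks of 13.6-fold at -65 bp and 5.17-fold at 842 bp. MBL2, mannose-binding lectin, had none, but its nearest summit lay just outside the window at 1020 bp with a fold of 4.20, and a stronger one of 16.5-fold with 61 fragments lay at -1983 bp. MASP1, a further lectin pathway protease, had its nearest summit in the gene at 4953 bp.

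C3 and the genes of its convertases ranged widely. CFB, which encodes factor B, the protease of the alternative pathway convertase, had a TSS peak of 27.9-fold with 128 fragments (exact Poisson interval 107 to 152) at -232 bp, higher than 92.8% of the highest TSS peaks of protein-coding genes. The peak spanned chr6:31945683-31946114, and so covered the whole of the printed stretch with its IRF and STAT matches. That stretch also holds TATAAA, starting 30 bases before the start. C2, its counterpart in the classical pathway, had a peak of 20.65-fold with 52 fragments at -267 bp, which also lay at the TSS of a second annotated gene that overlaps C2. C3, the central component of complement, had a peak of 9.50-fold at -167 bp, higher than 11.8% of the highest TSS peaks of protein-coding genes. C2 and CFB adjoin each other between 31897785 and 31952086 on chromosome 6, with 9 distinct peaks. The 9 include peaks at the TSS of other genes, namely EHMT2, ZBTB12, NELFE and SKIC2.

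C4A and C4B, the paralogous genes of complement C4, had no TSS peak. Their nearest summits lay at -9839 bp, at the TSS of DXO and STK19, for C4A and at -7523 bp for C4B, with folds of 14.3 and 12.6. Of the 1952 windows of 50 bp within 1000 bp of the C4A TSS, 100% were also found at the C4B TSS, and the authors kept uniquely mapped pairs. The part of this identity in the absence of a peak was not tested, so both genes are uncertain. Without them, 31 of 41 genes had a TSS peak. The pair lies on chromosome 6 between 31982057 and 32035418, with 3 distinct peaks, all in flanks.

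All 4 complement inhibitor genes had a TSS peak. C4BPA and C4BPB encode the chains of C4b-binding protein, a cofactor for the breakdown of C4b, and lie next to each other on chromosome 1 between 207088860 and 207144972. C4BPA had 19.2-fold with 29 fragments at -38 bp, inside the stretch with the FOXA and HNF1 matches printed above. C4BPB had 11.25-fold at -30 bp and 10.8-fold at 293 bp. CFI, the protease that cleaves C3b and C4b, had 12.5-fold at -147 bp, at a start site of 32.3% GC, and this peak also lay at the TSS of a second annotated gene. Without the TSS peaks shared with another protein-coding gene (those of C2, CFI and C8G), 28 of the 43 genes had one. The share of all protein-coding genes under this exclusion was not counted, so the 28 have no background to stand beside. SERPING1, the C1 inhibitor, had 9.79-fold at 528 bp, downstream of the TSS.

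The terminal pathway forms the membrane attack complex, and 5 of its 7 genes had a TSS peak. C8B and C6 had 15.0-fold at -27 bp and 14.2-fold at -11 bp, and C6 was among the most GC-poor starts at 31.9%. C8G had 13.8-fold at -560 bp, a peak that also lay at the TSS of the neighbouring gene FBXW5. C8A had 9.79-fold at -103 bp and 7.23-fold at 219 bp, and C7 had 9.72-fold at 448 bp. C5 and C9 had no TSS peak. The nearest summit to C5, which encodes the precursor of the C5a anaphylatoxin, was at -3497 bp (12.97-fold), inside the annotated gene, since other C5 transcripts start further upstream. C9, the pore-forming component, had its nearest summit at -11937 bp (8.51-fold). C8A and C8B lie together on chromosome 1 between 56854768 and 56974383, with 10 distinct peaks.

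Among the genes that initiate coagulation and lead to thrombin, 5 of 6 had a TSS peak, all of at least 16.6-fold. F10, which encodes factor X, the protease that converts prothrombin, had the highest TSS peak of the 43 genes. It reached 32.0-fold with 92 fragments (exact Poisson interval 74.2 to 113) at -45 bp, above 98.1% of the highest TSS peaks of protein-coding genes, and spanned chr13:113122632-113122883. F3, tissue factor, the initiator of coagulation, had 20.2-fold at -155 bp in the most GC-rich start of all (70.4%). F7, whose product is the partner of tissue factor, had 18.6-fold at -22 bp. F2, prothrombin, had a higher peak of 18.6-fold with 76 fragments at -829 bp and a lower one of 13.01-fold with 53 fragments at its start, at -35 bp. F5, a cofactor of factor X, had 16.6-fold at -74 bp and 6 further peaks in introns. F13B, with the lowest GC content of the 43 starts at 29.0%, had no peak within 20 kb, and the nearest summit lay 75182 bp away.

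The contact and intrinsic pathway had the lowest median TSS fold of the 9 role groups, at 7.99-fold in its 3 genes with a peak. F11, factor XI, had 9.17-fold at 696 bp and 7.15-fold at -357 bp. KNG1, high-molecular-weight kininogen, the cofactor of the contact system, had 7.99-fold with 10 fragments (exact Poisson interval 4.80 to 18.4) at -26 bp. F12, factor XII, which starts the contact system, had 6.85-fold with 8 fragments (interval 3.45 to 15.8) at 10 bp, higher than 3.87% of the highest TSS peaks of protein-coding genes. KLKB1, plasma prekallikrein, had no peak inside the gene, and the summit nearest its TSS was at -25481 bp (20.04-fold), beyond the 20 kb flank. F9 had its nearest summit at 189588 bp. KLKB1 and F11 are neighbours on chromosome 4 between 186226438 and 186289681, with 5 distinct peaks and none above 9.17-fold.

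**Figure D3:**
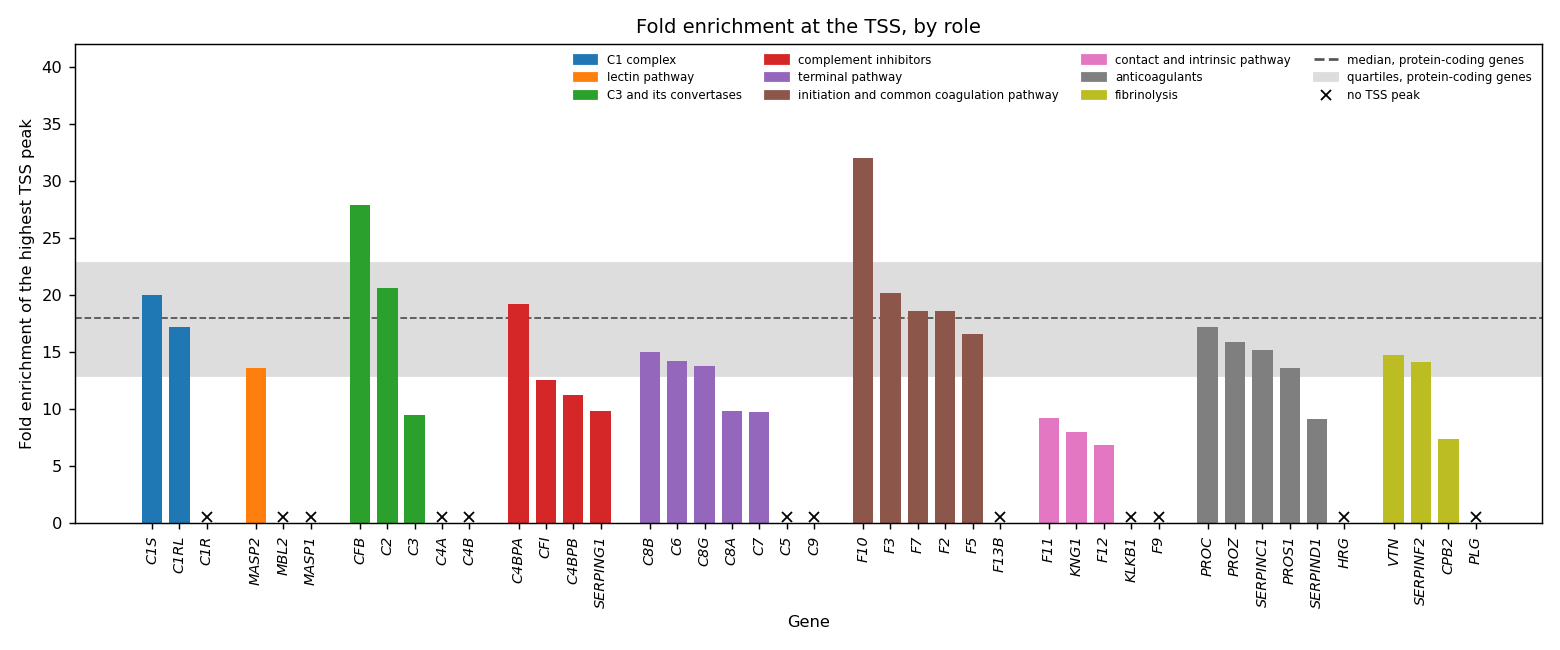
Fold enrichment of the highest TSS peak of each of the 43 genes (bars), coloured and grouped by role, with crosses for the 12 genes without a TSS peak. The dashed line and grey band are the median (17.9) and quartiles (12.9 and 22.8) over protein-coding genes that had one. Only F10 and CFB rise above the band, and the bars of F11, KNG1 and F12 all lie below it.

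Of the anticoagulant genes, 5 of 6 had a TSS peak. PROC, which encodes protein C, the protease that inactivates factors V and VIII, had 17.2-fold with 64 fragments at -29 bp and 7.95-fold at 498 bp. PROZ, protein Z, had 15.9-fold at -68 bp, and PROS1, protein S, the cofactor of protein C, had 13.6-fold at -9 bp and 9.24-fold at 684 bp. The serpins SERPINC1, antithrombin, and SERPIND1, heparin cofactor II, had 15.2-fold at -48 bp and 9.09-fold at -90 bp. HRG, histidine-rich glycoprotein, had no TSS peak and 1 peak within 20 kb, at -11773 bp (14.9-fold). F7, F10 and PROZ form 1 cluster on chromosome 13 between 113105788 and 113172386, in which all 3 genes had a TSS peak among 8 distinct peaks of 9.72 to 32.0-fold.

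Of the 4 fibrinolysis genes, VTN, vitronectin, an adhesive glycoprotein of plasma, had 14.7-fold at -117 bp. SERPINF2, the plasmin inhibitor alpha2-antiplasmin, had 14.1-fold at -93 bp. CPB2, the carboxypeptidase that slows fibrinolysis, had 7.36-fold at -52 bp. PLG, plasminogen itself, had no TSS peak, and its nearest summit lay in an intron at 2617 bp (8.31-fold) beside 2 further intron peaks of 9.06 and 9.28-fold.

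Peaks away from the start sites made up most of the 166. There were 40 TSS peaks (median 13.3-fold, 226 bp wide), 48 gene body peaks (10.0-fold, 164 bp) and 78 flank peaks (12.3-fold, 192 bp). Of the gene body peaks, 30 lay in introns of the canonical transcript and 13 outside that transcript but within the annotated gene. Of the flank peaks, 20 lay at the TSS of another protein-coding gene, with a median of 16.6-fold, against 10.9-fold for the 58 that did not. A flank peak therefore cannot be given to the gene it lies near from its position alone, and 26 peaks lay near more than 1 of the 43 genes.

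The gene body peaks of the highest fold were at C7 (22.1-fold with 40 fragments, 81987 bp downstream of the TSS), C2 (19.6-fold at -25461 bp, at the TSS of ZBTB12, and 18.8-fold at -20173 bp), C1S (18.6-fold at -41782 bp, at the TSS of LPCAT3) and MASP2 (18.0-fold at 9433 bp, in a coding exon). Of the 5 highest flank peaks, 4 lay at the start of another gene. They included those of VTN (31.8-fold, at POLDIP2 and TMEM199), CFB (28.4-fold, at NELFE and SKIC2) and CPB2 (27.8-fold, at ZC3H13). The exception was the peak 19987 bp downstream of the PROC start, with 29.6-fold and 137 fragments, the most of all 166 peaks. It lay at no protein-coding TSS and was higher than the TSS peak of PROC itself. The sequence within 50 bp of its summit, on the plus strand of GRCh38, held no match to the 10 motifs. It is shown because, of the gene body and flank peaks at no protein-coding TSS, this one had the highest fold. Starts of other gene types were not checked.
PROC distal summit, chr2:127438364-127438464: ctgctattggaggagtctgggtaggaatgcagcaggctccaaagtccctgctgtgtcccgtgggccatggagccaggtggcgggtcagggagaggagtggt

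The motif letters were also counted over whole promoters, 250 bases before to 50 after the start, which RefSeq gave for 35 of the 43 genes and 15345 protein-coding genes. RefSeq promoters were not matched for C1S, C3, C4A, C4B, C8G, SERPINC1, SERPINF2 and SERPING1, and the RefSeq starts of C2, C5 and C6 lie over 1000 bp from the canonical ones. FOXA was found in 4 (11.4%) of the promoters of these genes (C8B, C4BPA, PROS1 and KNG1), against 2.63% of all promoters and 4.79% of GC-poor ones. STAT was found in 4 (11.4%; PROS1, CFB, C1RL and VTN), against 1.14% and 1.30%. HNF1 was found in 3 (8.57%; F13B, C4BPA and PLG), against 0.541% and 1.78%, and HNF4 in 2 (5.71%; F10 and PROZ), against 0.319% and 0.609%. C/EBP was found in 8 (22.9%), against 8.36% and 15.7%.

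The shares of these 5 motifs thus stood above both backgrounds, in counts of 2 to 8 genes. NF-kB (GGNNTTTCC) was in 4 promoters (11.4%; F3, F5, MASP1 and C5), against 6.53% of all promoters and 6.57% of GC-poor ones. IRF was also in 4 (11.4%), against 7.04% and 13.9%, and so lay between both backgrounds. AP-1 (TGANTCA) was in 2 (5.71%), against 5.74% and 12.2%, and NF-Y in 2 (5.71%), against 8.86% and 8.40%. CTCF was in 1 (C1R, 2.86%), against 0.528% and 0.406%, and TATAAA, 40 to 15 bases before the start on the strand of the gene, was in 2 (CFB and HRG, 5.71%), against 3.70% of all and 9.70% of GC-poor promoters. Of the 35 promoters, 25 belonged to genes with a TSS peak. All 4 promoters with FOXA and all 4 with STAT were among these 25. HNF1 was in 1 of the 25 and in 2 of the 10 without a TSS peak (F13B and PLG), but PLG gained one with any transcript start. C/EBP was in 5 of the 25 and in 3 of the 10. Most of the 35 were in the class with a peak, and no such split was made over all promoters. These counts therefore do not show that a motif goes with a peak. The 25 include C2 and C6, whose RefSeq starts lie at -29934 and -47937 bp from the canonical TSS that has the peak. C6 is among the 5 with C/EBP, so its match does not lie at that peak. Near the RefSeq start of C2 there was another peak, of 14.5-fold at -30023 bp. The 10 include C5, whose RefSeq start lies at -24590 bp, near a peak of 12.6-fold at -24652 bp. The split therefore does not describe the scanned promoters of C2, C5 and C6. Matches of different motifs may overlap, and a match is a description of the sequence, not a bound site.

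**Figure D4:**
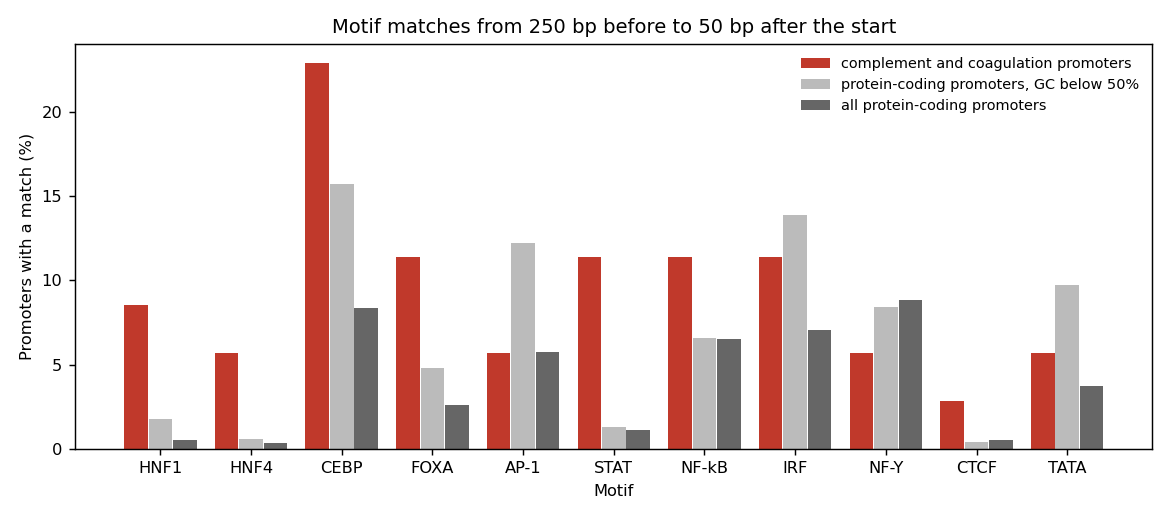
Share of promoters (y axis, %) with a match to each motif (x axis), for the 35 complement and coagulation promoters (red), GC-poor protein-coding promoters (light grey) and all protein-coding promoters (dark grey). The red bars for HNF1, HNF4, C/EBP (written CEBP), FOXA, STAT, NF-kB and CTCF exceed both grey bars, with 1 to 8 promoters behind each, and those for AP-1, IRF, NF-Y and TATA do not.

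All 10 motifs were also counted within 50 bp of the summits. The 40 TSS peaks of these genes held FOXA and C/EBP in 3 peaks each (7.50%), against 0.891% and 2.18% of the TSS peaks of protein-coding genes. They held HNF4, STAT and NF-kB in 2 each (5.00%), against 0.287, 0.479 and 2.27%. HNF1, AP-1 and NF-Y were in 1 each (2.50%), against 0.228, 1.42 and 5.77%, and IRF and CTCF were in none, against 1.41 and 0.773%. These counts of 0 to 3 peaks are too small for a firm share, and these summits also had a lower GC content (median 55.9%) than those of protein-coding genes (69.3%), whose part in the shares was not tested.

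In the 126 gene body and flank peaks of these genes, FOXA was in 6.35%, C/EBP in 5.56%, HNF4 in 1.59% and STAT in none, against 5.92, 7.52, 1.73 and 0.431% of all peaks outside the TSS windows of protein-coding genes. Over all 166 peaks, which include the 40 TSS peaks, FOXA was in 6.63% against 4.79% of all peaks, C/EBP in 6.02% against 6.32%, HNF4 in 2.41% against 1.41%, NF-kB in 3.01% against 1.99%, NF-Y in 3.01% against 2.71% and AP-1 in 4.22% against 5.58%. STAT was in 1.20% against 0.442%, HNF1 in 0.602% against 0.956%, IRF in 0.602% against 1.94% and CTCF in 1.81% against 4.46%. These shares rest on the window. Within 25 bp FOXA was in 1.20% against 2.50%, so that it lay below the background, and within 100 bp in 7.23% against 7.21%. C/EBP was in 2.41% against 2.92% within 25 bp, and STAT in 3.61% against 0.804% within 100 bp.

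The other genes of both pathways were set beside the 43. Among 22 other pathway genes of hepatocytes, 10 (45.5%) had a TSS peak, with a median of 18.75-fold, at a median GC content of 41.9%. They included FGA and FGG, which encode fibrinogen chains (25.4 and 16.6-fold), and CFHR4, the one gene of its complement factor H-related family with a peak (5.95-fold). Among 26 pathway genes of other cell types, such as the macrophage genes of C1q and the endothelial VWF, 2 (7.69%) had one at a median GC content of 55.4%. They included PLAU, urokinase (6.59-fold). Among 12 pathway genes used by most cells, 11 (91.7%) had a TSS peak with a median of 21.7-fold. ANXA2, a plasminogen receptor subunit, had none at its canonical start, but all 12 had one when the start of any annotated transcript was used. In share the 43 genes (72.1%) thus stood below the genes of most cells, and above the other hepatocyte genes and those of other cell types. The other hepatocyte genes also had a lower median GC content than the 43 (51.0%), whose part in this gap was not tested. In fold the 43 stood below both hepatocyte and general pathway genes.

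**Figure D5:**
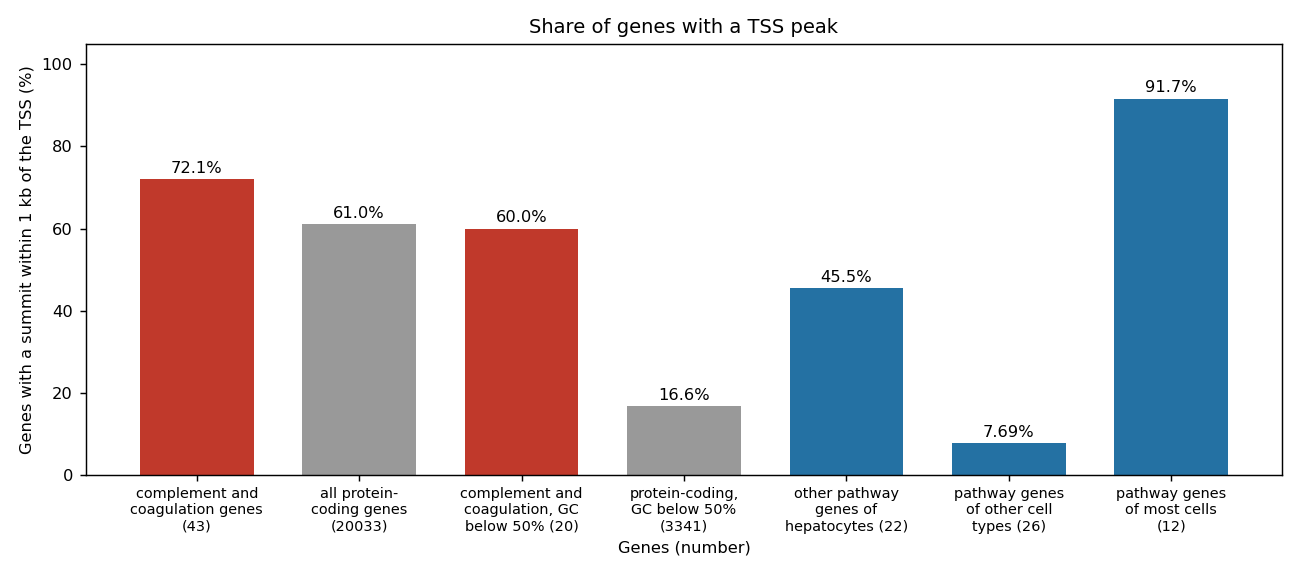
Share of genes with a summit within 1 kb of the TSS (y axis, %), with the number of genes under each bar. The 43 genes (72.1%) stand beside all protein-coding genes (61.0%), their 20 GC-poor members (60.0%) beside GC-poor protein-coding genes (16.6%), and the other pathway lists follow at 45.5, 7.69 and 91.7%.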

How the data were processed

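Bulk ATAC-seq peaks of 1 HepG2 library (0.1% FA, cryopreserved) were analysed. According to their methods, the authors used snakePipes, with cutadapt for trimming, Bowtie2 for mapping to GRCh38 and samtools for removal of duplicates, kept uniquely mapped pairs, and ran MACS2 at standard settings. The MACS2 version and any shift of read ends to the Tn5 cut site, which would move summits by a few bases, are not given in the sources used here. By their names, the peaks came from an alignment filtered for short fragments. The deposited ratio is the fold enrichment at the summit, the deposited -log10 values are those of p and q, and the other deposited value is the summit offset.

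Fragments at 60467 of 60474 summits were solved as whole numbers from fold and -log10 p under the caller's formulas (relative tolerance 2e-05). The steps were tested on simulated data. Sequences came from GRCh38 and RefSeq. The members, lists and motifs were chosen with earlier results of these data known. The rule for named genes took every TSS peak of the 43 genes, the nearest peak of those without one, the 5 gene body and 5 flank peaks of highest fold, clusters of members within 20 kb, and genes of other lists where at most 5 differed from the rest; FGA, FGG, CFHR4 and other peaks named were chosen after their values were seen. Calculations used pysam 0.24.0, samtools 1.23.1, scipy 1.17.1, pandas 2.3.3, numpy 2.4.6 and matplotlib 3.10.9 under Python 3.11.15. The share of the 43 genes with a TSS peak carries an exact binomial interval at a 95% level. The fragments of CFB, F10, KNG1 and F12 carry exact Poisson intervals at the same level. Other shares and fragment counts are given without an interval. Alternatives were other TSS windows, flanks, thresholds, GC limits and motif windows. Values of 2 items that this rule would name are not reported here.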

Additional observations from a re-analysis of the deposited data

How the results depend on the processing

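Of 96 values recomputed under another setting, 14 moved, 8 of them among the 40 motif values. A count was taken as moved when it changed by over 1.5 times, and a motif share when it left the exact binomial interval of its first value, which is wide for so few matches: STAT at 3.61% and AP-1 at 8.43% within 100 bp, and AP-1 at 1.81% and HNF4 at 1.20% within 25 bp, stayed inside. The motif shares that moved within 25 bp were C/EBP (2.41%, against 2.92% of all peaks), FOXA (1.20%, against 2.5%) and NF-kB (0.602%, against 0.82%). Within 100 bp they were C/EBP (12.7%, above its share of all peaks) and IRF (6.63%, against 4.24%). In all peaks the shares of these motifs likewise fell within 25 bp and rose within 100 bp. Outside TSS windows HNF1 (0%, against 1.17% of all such peaks) and STAT (0%, against 0.431%) moved. IRF (0%) also moved among peaks with a -log10 q of 10 or more. The number of genes with a TSS peak was 29 with a 500 bp window (C8G and SERPING1 lost), 32 with 2500 bp (MBL2 gained), 35 with the start of any annotated transcript (C5, MASP1, MBL2 and PLG gained) and 29 at a -log10 q of at least 10 (F12 and KNG1 lost), against 58.3, 65.4, 66.6 and 57.8% of protein-coding genes. With GC below 55%, 19 of 28 GC-poor genes had one, against 29.3%. Pathway genes of other cell types with a TSS peak were 4 with 2500 bp, 8 with any transcript start and 1 at a -log10 q of at least 10. Peaks at the 43 genes were 259 with a 50 kb flank and 69 in the genes alone, since more or less sequence was searched. The motif windows of 25 and 100 bp likewise searched less or more sequence than 50 bp, in the peaks of the 43 genes and in all peaks alike. The cause of the shifts was not otherwise tested. The removal of C4A and C4B was chosen after seeing the data. At 10 fragments or fewer, as in 32 of the 166 peaks, folds are imprecise. No paired analysis was possible because 1 library was analysed.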
